A study of Homo sapiens with 48 samples.

Results

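The general mRNA decay machinery is the set of enzymes and cofactors that remove the poly(A) tail, take off the 5′ cap and degrade the body of an mRNA. Its 48 members were taken by gene name from the deposited table of 57820 genes, with no threshold on their values though with earlier results of these data known, and all 48 were among the 19129 genes with enough counts to be tested. By role they comprised 9 genes of the deadenylating CCR4-NOT complex, 5 of PAN2-PAN3, PARN and the TOB/BTG adaptors, 9 decapping genes, 7 genes of the LSM1-7 ring, 2 5′ to 3′ exonucleases, 11 exosome genes and 5 genes of the SKI complex and PELO-HBS1L. RNA was sequenced from Flp-In 293 T-REx cells, a HEK293-derived line with a single site for inserting a transgene. Stable lines carried the CLIP protein tag fused to UPF1, either wild type (WT) or with the changes K498A, DE636AA, R843C, A546H, GA-KH or E797R, or carried the tag alone (CLIP). Each of the 8 lines was transfected at 40 nM with an siRNA against endogenous UPF1 (siUPF1) or with a non-targeting siRNA (siNT) and harvested after 72 h, with 3 replicate libraries per group and 48 in all. All groups, the CLIP controls included, were kept in hygromycin before transfection and received transfection reagent and an siRNA. Whether a line was 1 clone was not given in the sources used here.

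UPF1 is the RNA helicase at the centre of nonsense-mediated decay (NMD), the pathway that degrades mRNAs on which translation ends in an abnormal context. NMD hands its substrates to the same general enzymes that turn over other mRNAs: CCR4-NOT shortens the tail, DCP2 with its cofactors removes the cap, XRN1 digests from the 5′ end, and the exosome with the SKI complex digests from the 3′ end. K498A lies in the motif with which the helicase binds ATP, and DE636AA in the one with which it hydrolyses ATP.

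The libraries held between 21.3 and 47.1 M expected counts each. UPF1 itself was at 18.2, 36.8 and 17.7 CPM (counts per 1000000 of the normalised library total) in CLIP siUPF1 libraries and at 105, 106 and 113 CPM in CLIP siNT libraries. In the transgenic lines UPF1 ran from 3695 to 8235 CPM in siUPF1 libraries and from 4027 to 6238 CPM in siNT libraries, since transgene and endogenous reads were counted together, so the knockdown could be checked in the CLIP line only. NEFL, VIM and SOX2, expected in HEK293-derived cells, were at 169 to 493, 430 to 807 and 24.7 to 34.4 CPM, PAX2 and NEFM were low, at 2.42 to 8.89 and 0.842 to 2.75 CPM, and EPCAM, an epithelial marker, was at 64.9 to 100 CPM. EYA1, also expected in HEK293-derived cells, was at 7.05 to 19.4 CPM. The leukocyte marker PTPRC and the erythroid marker HBB had a median of 0 CPM. Medians of ALB (hepatocyte), MYH7 (muscle) and GFAP (astrocyte) were 0.0567, 0.0266 and 0.35 CPM. CD68 (macrophage), COL3A1 and COL1A1 (fibroblast) were at 3.04 to 8.41, 2.61 to 13.4 and 1.02 to 4.67 CPM, levels like those of PAX2 and NEFM. One library stood apart: mitochondrial genes took 0.631% of the counts in CLIP siUPF1 replicate 2, against 1.53% to 2.92% in every other library. Its change from siNT also followed GC content, with a Spearman correlation over the 48 members of 0.69, against 0.05 for replicate 1 and 0.23 for replicate 3. CLIP results are therefore given with and without it. The main fit, made to all 48 libraries, shares 1 estimate of each gene's spread over all groups. This library thus also entered the tests of the other lines, and its part in their calls was not tested. Unless another fit is named, calls are those of the main fit.

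Upon UPF1 knockdown in the CLIP line, 9 of the 48 members were higher and 12 were lower at a Benjamini-Hochberg adjusted p under 0.05 (edgeR quasi-likelihood test), or 43.8% of members against 47.4% of all genes tested (25.1% higher and 22.3% lower). The median log2 change of the members was −0.06, against −0.01 over all genes, so the members moved in both directions. Without replicate 2, 12 were higher and 9 lower, again 43.8% of members against 41.1% of all genes. Of the 21 called members, 15 kept their call and direction, 6 (XRN1, EDC4, CNOT2, EXOSC2, DIS3 and SKIV2L) lost it, and 6 others (DCP1B, DCP2, PATL1, PNRC2, CNOT6L and EXOSC8) gained one. With only the 6 CLIP libraries in the fit, 7 members were called, 3 higher and 4 lower (14.6%, against 22% of all genes), and those were CNOT6, CNOT7, EXOSC5, EXOSC7, EXOSC9, LSM7 and XRN2. In bulk RNA, less RNA per cell and fewer cells of a kind cannot be told apart.

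**Figure D1:**
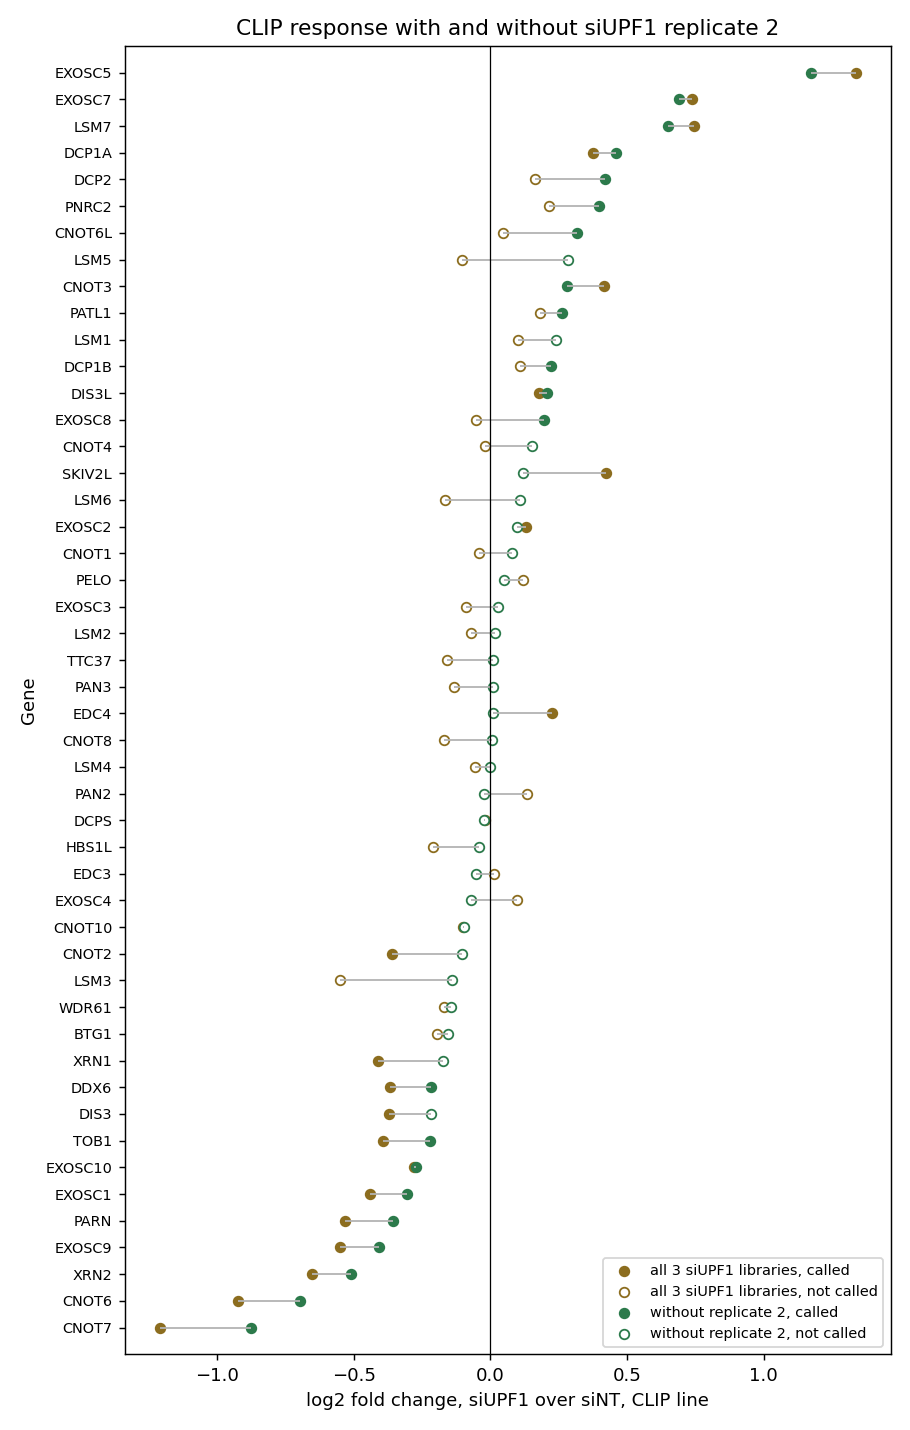
The log2 fold change of siUPF1 over siNT (x axis) in the CLIP line for each of the 48 members (rows), with all 3 siUPF1 libraries and without replicate 2; filled points were called at adjusted p under 0.05. CNOT7 and CNOT6 stayed lowest and EXOSC5 highest both ways, whereas LSM3 moved by more than any other member between the settings, −0.55 with replicate 2 and −0.14 without.

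In the lines with a UPF1 transgene, siUPF1 gave 7 higher and 8 lower members in WT, 31.2% of members against 27.2% of all genes (14% higher and 13.3% lower). K498A gave 12 and 12, 50% of members against 32.7% of all genes (16.2% higher and 16.5% lower). DE636AA gave 11 and 11, 45.8% against 34.3% (16.7% and 17.6%). R843C gave 6 and 6, 25% against 32.5% (17.7% and 14.8%), and A546H gave 6 and 8, 29.2% against 32.2% (17.2% and 15%). GA-KH gave 4 and 7, 22.9% against 28.3% (14.5% and 13.8%), and E797R gave 8 and 5, 27.1% against 29.5% (16% and 13.5%). The share of members called was near the share of all genes in every line but K498A and DE636AA, where it was above it, a gap that was not tested. Of the 132 calls in the 8 lines, 88 held in all 6 fits that left out 1 library of the line, 21 were lost in 1 or 2 of them and 23 in 3 or more. Median log2 changes of the members lay between −0.04 in K498A and 0.03 in GA-KH.

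**Figure D2:**
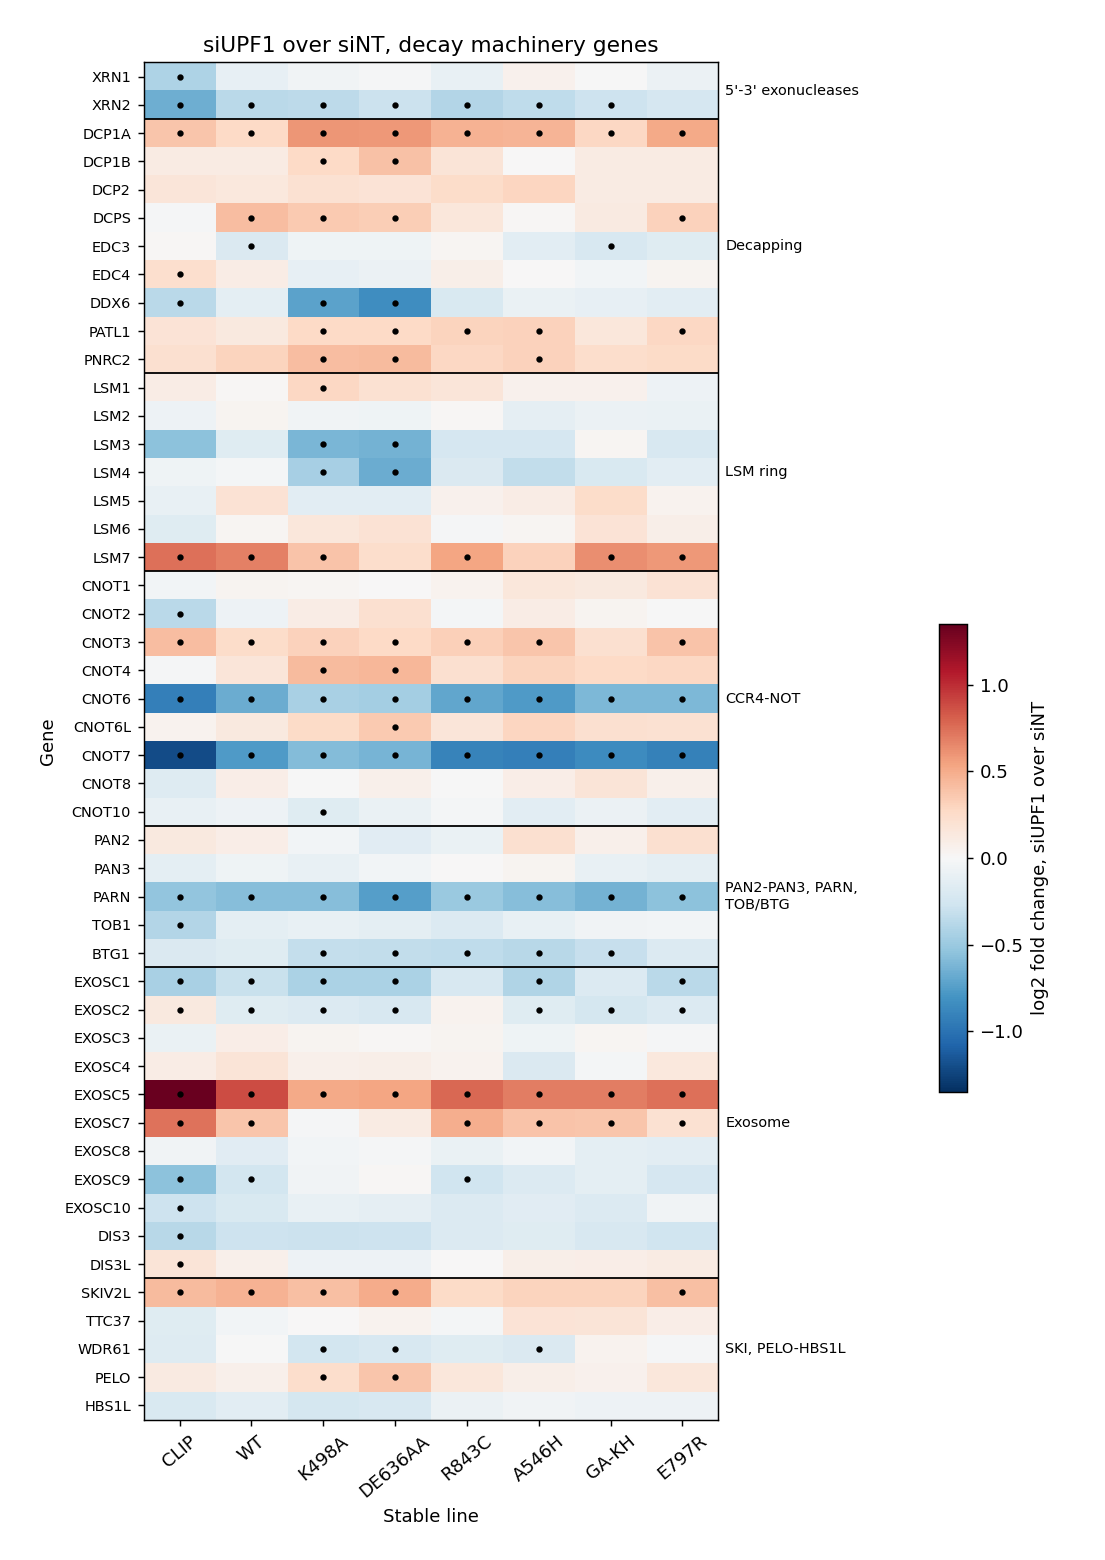
Colour gives the log2 fold change of siUPF1 over siNT for each member (rows, by subcomplex) in each stable line (columns), and a black dot marks an adjusted p under 0.05. CNOT6, CNOT7 and PARN are blue with a dot and DCP1A and EXOSC5 red with a dot in all 8 lines, while DDX6 and LSM4 are darkest blue in K498A and DE636AA.

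Behind those counts, 5 members were called in the same direction in all 8 lines. DCP1A and EXOSC5 rose in every line (4.17% of members, against 5.75% of all genes), and CNOT6, CNOT7 and PARN, which are 3 deadenylase genes, fell in every line (6.25% of members, against 5.24% of all genes). Each of these 40 values kept its call in all 240 fits that left out 1 library of the line, and all 40 were called with DESeq2 and with the replicate block. With only the libraries compared, DCP1A lost its call in CLIP and WT and PARN in CLIP. Without the low-count filter DCP1A lost it in WT and GA-KH. Of the 5, CNOT6, CNOT7 and EXOSC5 thus kept all 8 calls under both settings. XRN2 was called in 7 lines in the main fit, but in all 8 with DESeq2, the replicate block and only the libraries compared. CNOT3 was called in all 8 with the block. In the main fit, 13 members were called in no line (27.1%, against 30.9% of all genes). Among them were the decapping enzyme DCP2, the CCR4-NOT scaffold CNOT1, and the deadenylase PAN2 with its partner PAN3.

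The promoters of 4 of the 5 genes called in every line are shown because each gene kept its direction. They run from 250 bases before to 50 after the start, 5′ to 3′ on the gene's strand, from RefSeq on GRCh38.p14. Capitals mark matches on either strand to the GC box (GGGCGG), the CCAAT box (CCAAT), the ETS motif (CCGGAAG) and the E-box (CACGTG), each searched without regard to overlap with another.
CNOT6, chr5:180494129-180494428, plus strand: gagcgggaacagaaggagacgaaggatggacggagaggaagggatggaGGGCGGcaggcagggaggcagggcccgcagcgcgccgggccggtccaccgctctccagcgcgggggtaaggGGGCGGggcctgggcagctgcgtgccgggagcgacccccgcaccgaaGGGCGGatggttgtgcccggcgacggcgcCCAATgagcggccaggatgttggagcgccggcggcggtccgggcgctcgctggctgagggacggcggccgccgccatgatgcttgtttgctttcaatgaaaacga
PARN, chr16:14630211-14630510, minus strand: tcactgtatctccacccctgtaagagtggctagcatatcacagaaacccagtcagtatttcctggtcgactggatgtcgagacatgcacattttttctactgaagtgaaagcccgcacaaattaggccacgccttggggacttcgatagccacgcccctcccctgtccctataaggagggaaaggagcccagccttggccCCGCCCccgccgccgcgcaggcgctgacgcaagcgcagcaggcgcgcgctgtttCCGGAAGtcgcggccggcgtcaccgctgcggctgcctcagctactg
DCP1A, chr3:53347494-53347793, minus strand: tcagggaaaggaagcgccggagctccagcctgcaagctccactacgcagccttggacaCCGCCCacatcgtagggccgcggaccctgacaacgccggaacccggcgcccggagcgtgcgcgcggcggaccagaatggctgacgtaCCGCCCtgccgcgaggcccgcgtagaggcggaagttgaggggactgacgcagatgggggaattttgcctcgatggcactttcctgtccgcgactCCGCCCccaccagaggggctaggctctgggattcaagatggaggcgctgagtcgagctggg
EXOSC5, chr19:41397310-41397609, minus strand: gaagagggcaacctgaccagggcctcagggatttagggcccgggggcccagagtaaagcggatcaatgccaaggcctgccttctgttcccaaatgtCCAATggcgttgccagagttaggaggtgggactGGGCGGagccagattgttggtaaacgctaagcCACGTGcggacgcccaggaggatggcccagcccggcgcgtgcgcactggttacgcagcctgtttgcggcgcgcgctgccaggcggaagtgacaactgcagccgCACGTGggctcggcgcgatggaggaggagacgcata
The 2 genes that fell and the 2 that rose did not divide by motif: each of the 4 windows held at least 1 GC box, CNOT6 and EXOSC5 each held a CCAAT box, PARN held the only ETS match and EXOSC5 the only E-boxes, 2 of them. Of the 42 members with a promoter in the table, 30 (71.4%) held a GC box, against 45% of all 35116 promoters, and 15 (35.7%) held a CCAAT box, against 34.6%. ETS matches occurred in 19% of member promoters and 10.3% of all, and E-boxes in 9.52% and 7.26%. Of the other motifs searched, the NRF1 and YY1 motifs occurred in 7.14% of member promoters each, against 1.24% and 1.2% of all, and the CRE (TGACGTCA) in 2.38% against 1.85%. The 35116 promoters were not limited to genes tested here, whereas all members were tested protein-coding genes. Such unlike sets do not show an enrichment in the members. Matches are letters in a window and not measured binding.

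Deadenylation opens the decay of most mRNAs, and CCR4-NOT carries it out with a pair of enzymes, one from the CAF1-type paralogs CNOT7 and CNOT8 and one from the CCR4-type paralogs CNOT6 and CNOT6L. In the CLIP line CCR4-NOT had 1 of 9 members higher and 3 lower (44.4%, against 47.4% of all genes), or 2 higher and 2 lower without replicate 2, and CNOT7 fell furthest of all 48 members. CNOT7 was at 50.1, 20.2 and 59.8 CPM in CLIP siUPF1 libraries, against 101, 96.7 and 105 CPM in CLIP siNT libraries. Every siUPF1 library was below every siNT library, and replicate 2 was the lowest. The log2 change was −1.21 (SE 0.17, adjusted p = 2.84e-07), and −0.87 without replicate 2. In the other lines the log2 change of CNOT7 lay between −0.93 in A546H and −0.59 in K498A, and siUPF1 and siNT libraries overlapped in none.

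CNOT6 was at 66.0, 35.0 and 59.2 CPM in CLIP siUPF1 libraries and at 103, 101 and 99.6 CPM in CLIP siNT libraries. The groups did not overlap, and the log2 change was −0.92 (SE 0.13, adjusted p = 3.16e-07), or −0.70 without replicate 2. In WT cells it was at 67.7, 68.1 and 53.0 CPM with siUPF1, against 100, 98.5 and 101 CPM with siNT. CNOT6 fell in the remaining lines too, least in K498A (−0.44) and most in A546H (−0.77).

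The paralogs gave other values. CNOT8 passed the test in no line, with log2 changes from −0.17 in CLIP to 0.17 in GA-KH, and in WT cells it was at 49.6, 48.9 and 49.2 CPM with siUPF1, against 44.7, 44.4 and 50.1 CPM with siNT. CNOT6L rose in DE636AA (0.36, adjusted p = 0.0377), a call lost in 4 of the 6 fits that left out 1 library, with values from 0.05 in CLIP to 0.29 in A546H in the lines that gave no call, and in CLIP it was 0.32 and called once replicate 2 was left out. The ratio within each pair was lower in every siUPF1 library than in every siNT library, in all 8 lines. That of CNOT7 to CNOT8 counts averaged 0.954 ± 0.29 in CLIP siUPF1 and 2.06 ± 0.12 in CLIP siNT libraries, and 1.14 ± 0.03 in WT siUPF1 and 2.05 ± 0.10 in WT siNT libraries (SD, n = 3 each). The ratio of CNOT6 to CNOT6L was 0.525, 0.586 and 0.493 in CLIP siUPF1 libraries, against 1.06, 0.986 and 1.04 in CLIP siNT libraries, so replicate 2 did not stand apart in this ratio. Whether paralogs differed in their response was not tested as a contrast. Since their counts are not scaled to length here, these ratios compare libraries and not the amounts of the paralogs.

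**Figure D3:**
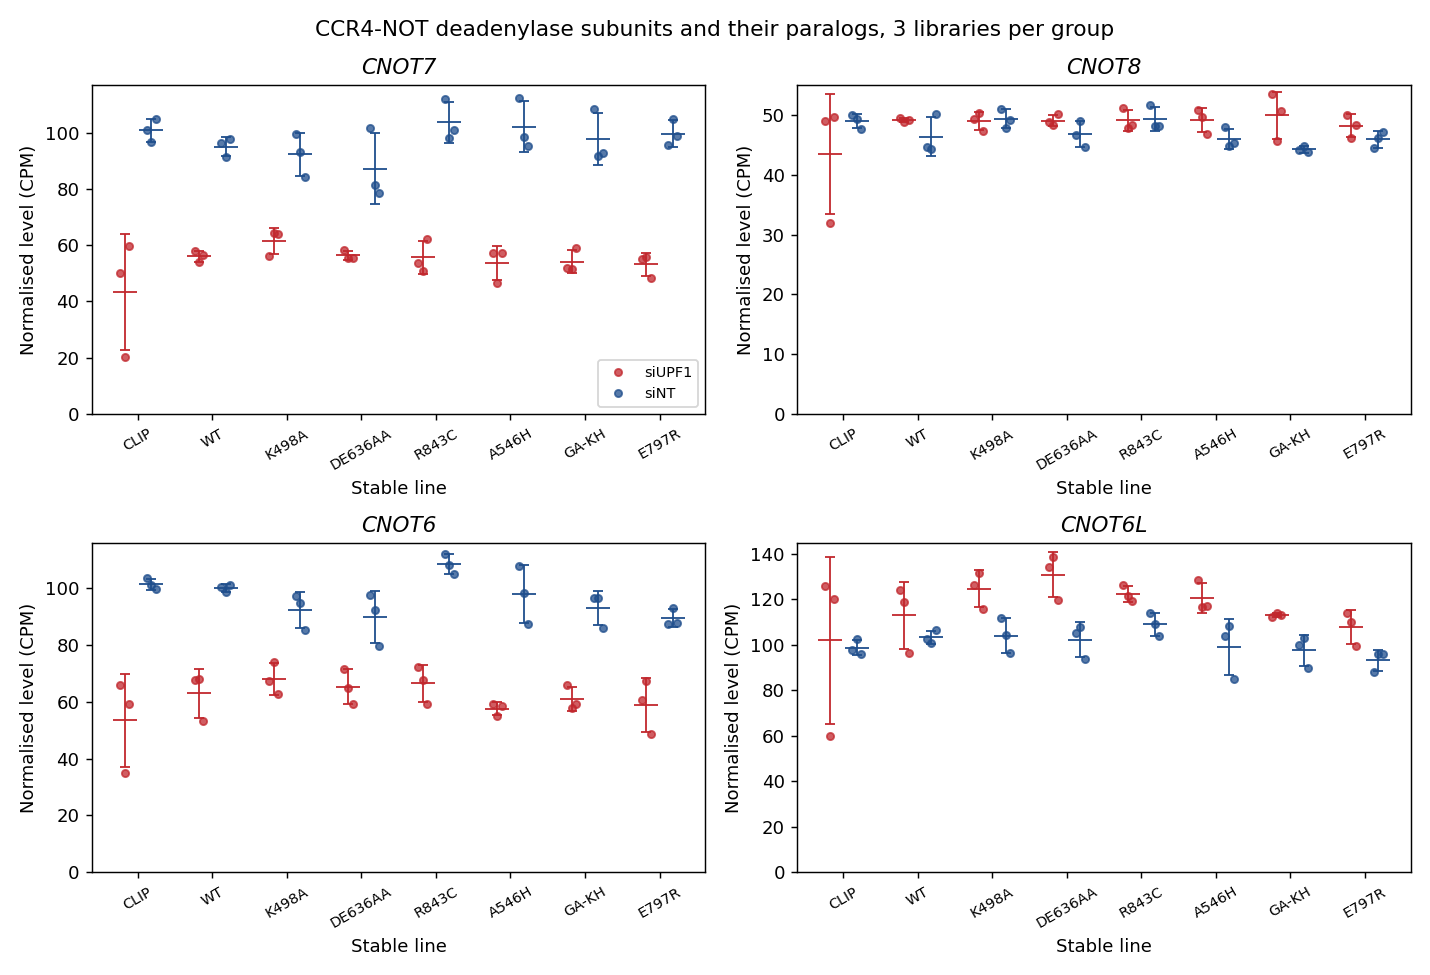
Normalised level in CPM (y axis) of the 4 deadenylase subunits of CCR4-NOT in each stable line (x axis); points are libraries, bars the mean ± SD of 3, siUPF1 in red to the left of siNT in blue. CNOT7 and CNOT6 are lower with siUPF1 in all 8 lines without overlap, while CNOT8 passed the test in none and CNOT6L in DE636AA only, a call lost in 4 of 6 fits without 1 library.

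Other CCR4-NOT genes moved less. CNOT3, part of the module that docks onto the scaffold, rose in 7 of the 8 lines: by 0.41 in CLIP (0.28 without replicate 2), where it was at 147, 185 and 140 CPM with siUPF1 and at 116, 118 and 120 CPM with siNT, and by 0.25 to 0.39 in the 6 others, of which the WT call was lost in 4 of 6 fits that left out 1 library. In GA-KH its value was 0.21 (adjusted p = 0.0507). CNOT4, a ubiquitin ligase, rose in K498A (0.42) and DE636AA (0.45) only by this test, and CNOT2, the partner of CNOT3, fell in CLIP (−0.36), a call that was lost without replicate 2 (−0.10).

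PARN, a separate poly(A)-specific ribonuclease, was at 80.5, 53.9 and 84.0 CPM in CLIP siUPF1 libraries, against 104, 103 and 109 CPM in CLIP siNT libraries. It fell by 0.53 on the log2 scale in CLIP (SE 0.09, adjusted p = 1.12e-05), by 0.36 without replicate 2, and most in DE636AA (−0.74), where siUPF1 libraries had 62.9, 56.7 and 56.5 CPM and siNT libraries 109, 92.8 and 93.0 CPM. Libraries overlapped in no line. TOB1, an adaptor that brings CAF1-type enzymes to mRNAs, was at 39.8, 26.1 and 39.7 CPM in CLIP siUPF1 libraries, against 44.3, 45.4 and 49.3 CPM in CLIP siNT libraries. TOB1 fell in that line (−0.39, SE 0.09, adjusted p = 0.000439, and −0.22 without replicate 2). In the other lines it had no call in the main fit, but was called in R843C with only the libraries compared. BTG1, a related adaptor, fell in K498A, DE636AA, R843C, A546H and GA-KH, by 0.31 to 0.37 on the log2 scale. In K498A, DE636AA and GA-KH that call was lost in 2 of 6 fits that left out 1 library, with −0.22 in DE636AA without siUPF1 replicate 1.

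Decapping commits an mRNA to 5′ to 3′ decay. In CLIP 2 of the 9 decapping genes were higher and 1 lower (33.3%, against 47.4% of all genes), and without replicate 2 the numbers were 5 and 1. DCP1A, the cofactor that activates DCP2, was at 56.2, 45.2 and 52.9 CPM in CLIP siUPF1 libraries, against 40.6, 39.6 and 38.8 CPM in CLIP siNT libraries. The groups did not overlap, with a log2 change of 0.38 (SE 0.08, adjusted p = 7.47e-05), or 0.46 without replicate 2. DCP1A was the highest called member in K498A (0.59) and in DE636AA (0.58), where siUPF1 libraries had 64.4, 63.9 and 59.1 CPM and siNT libraries 38.5, 45.1 and 41.4 CPM. Its smallest change was that in WT (0.27).

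In K498A and DE636AA 5 decapping genes rose and 1 fell (66.7% of 9 in both lines, against 32.7% and 34.3% of all genes). Those that rose were the same 5 in both lines: DCP1A, its paralog DCP1B, the scavenger enzyme DCPS that hydrolyses cap remnants, PATL1, which links the LSM ring to decapping, and PNRC2, which bridges DCP1A to other factors. DCP1B rose by 0.27 in K498A and 0.39 in DE636AA and in no other line while all libraries were kept. The K498A call for DCP1B was lost in 2 of 6 fits that left out 1 library. PATL1 rose by 0.26 to 0.31 in 5 lines, but in each the call was lost in 1 to 4 such fits, and in K498A it was 0.15 without siNT replicate 3. PNRC2 rose by 0.31 to 0.43 in 3 lines, with the A546H call lost in 4 of 6.

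The gene that fell in both lines was DDX6, a DEAD-box helicase that promotes decapping and represses translation. In K498A cells DDX6 was at 125, 139 and 122 CPM with siUPF1, against 225, 216 and 193 CPM with siNT. In DE636AA cells it was at 116, 117 and 102.4 CPM with siUPF1, against 211, 196 and 190 CPM with siNT. In both lines every siUPF1 library was far below every siNT library, and outside these 6 siUPF1 libraries only CLIP siUPF1 replicate 2 fell in their range. The log2 changes were −0.72 (SE 0.09, adjusted p = 5.4e-08) in K498A and −0.83 (SE 0.09, adjusted p = 2.3e-09) in DE636AA. WT cells had 211, 201 and 176 CPM with siUPF1, against 216, 212 and 216 CPM with siNT, a log2 change of −0.13 that did not pass the test. CLIP cells had 194, 133 and 187 CPM with siUPF1, against 219, 220 and 223 CPM with siNT, and there DDX6 fell by 0.37 (SE 0.09, adjusted p = 0.000784), or by 0.22 without replicate 2.

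The LSM1-7 ring binds shortened tails and stimulates decapping, and LSM2 to LSM7 also belong to a nuclear ring on the U6 small nuclear RNA. In CLIP 1 of the 7 members was higher and none lower (14.3%, against 47.4% of all genes), with and without replicate 2. LSM7 was at 19.2, 26.5 and 24.5 CPM in CLIP siUPF1 libraries, against 14.1, 12.3 and 15.5 CPM in CLIP siNT libraries, without overlap (log2 change 0.74, SE 0.13, adjusted p = 1.39e-05, and 0.65 without replicate 2). It rose in 6 lines in all, by 0.38 in K498A to 0.68 in WT among the transgenic ones, whereas A546H (0.31, adjusted p = 0.0661) and DE636AA (0.23) gave values short of the threshold. The K498A call was lost in 3 of 6 fits that left out 1 library, and was 0.23 without siNT replicate 2. SPPL2B, whose exons overlap those of LSM7 on the other strand in GENCODE 29, was called in no line.

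In the main fit LSM3 and LSM4 were called lower in the same K498A and DE636AA cells only, though other fits called them in further lines. LSM3 was at 64.4, 57.2 and 45.4 CPM in DE636AA siUPF1 libraries, against 97.9, 79.7 and 81.5 CPM in DE636AA siNT libraries, and at 64.5, 64.7 and 55.2 CPM in K498A siUPF1 libraries, against 110, 97.6 and 74.1 CPM in K498A siNT libraries. The groups were apart in both lines, yet with adjusted p = 0.0355 and 0.0434 the calls were lost in 4 and 5 of the 6 fits that left out 1 library. LSM4 was at 97.6, 95.0 and 126 CPM in DE636AA siUPF1 libraries, against 163, 150 and 194 CPM in DE636AA siNT libraries, and fell by 0.67 (SE 0.15, adjusted p = 0.000454), a call kept in all 6 such fits. In K498A LSM4 fell by 0.45 (SE 0.15, adjusted p = 0.0159), a call lost in 3 of 6 such fits. XPC, whose exons overlap those of LSM3 on the other strand, fell in K498A (−0.51) and DE636AA (−0.67) too, and in each of the other transgenic lines by 0.24 to 0.34. The part of reads from the other strand in the LSM3 values was not tested.

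**Figure D4:**
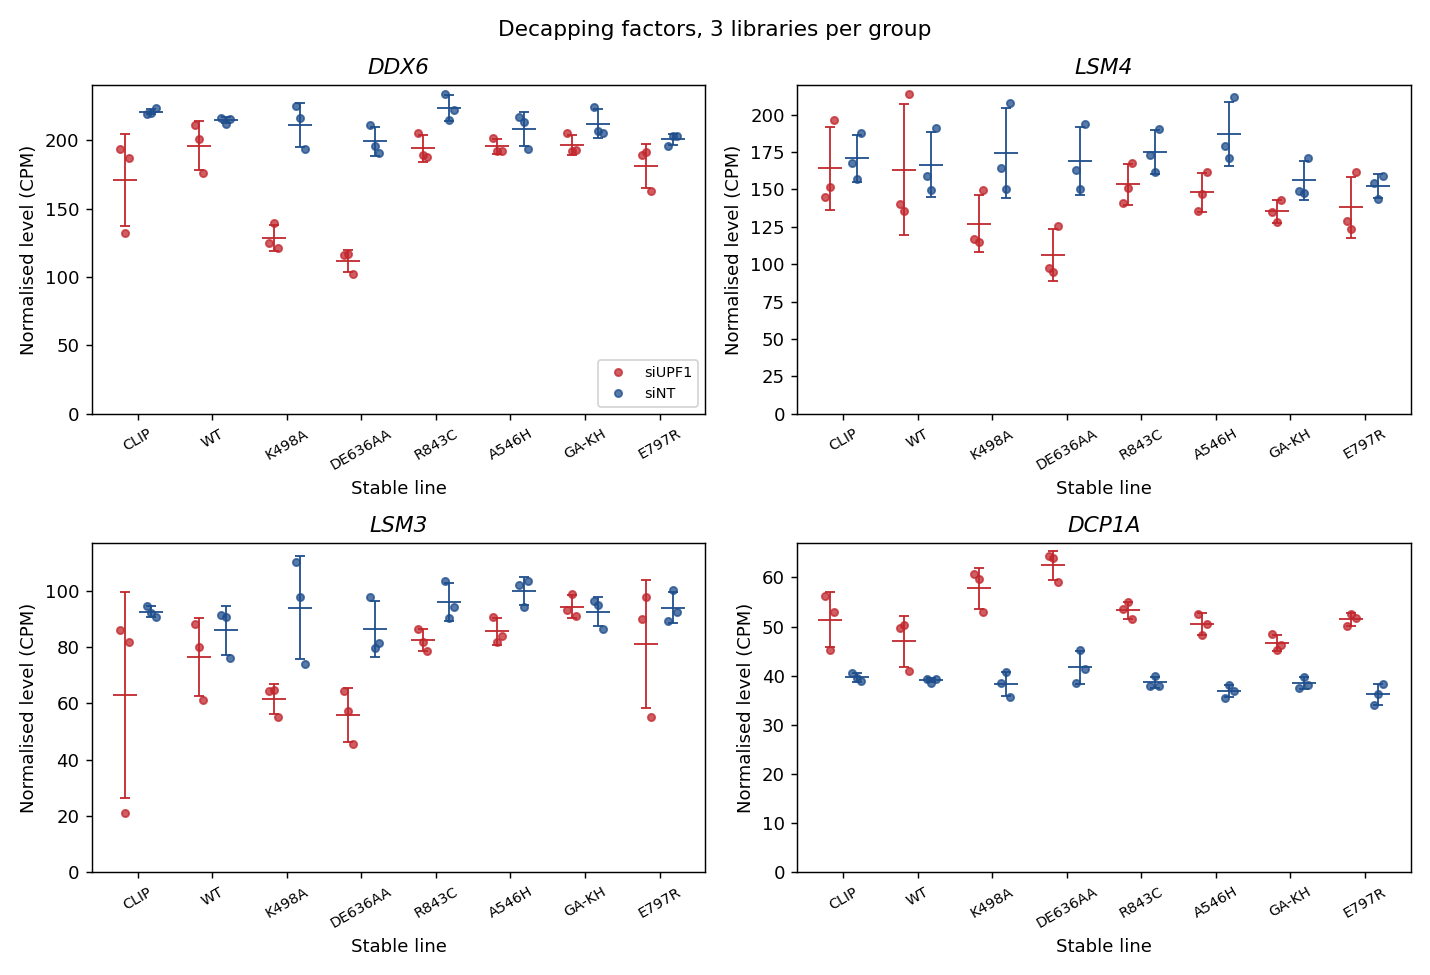
Normalised level in CPM (y axis) of DDX6, LSM4, LSM3 and DCP1A in each stable line (x axis); points are libraries, bars the mean ± SD of 3, siUPF1 in red to the left of siNT in blue. The 6 siUPF1 libraries of K498A and DE636AA lie between 102.4 and 139 CPM for DDX6, and CLIP siUPF1 replicate 2 lies alone at 20.9 CPM for LSM3.

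In CLIP both 5′ to 3′ exonucleases were called lower (100%, against 47.4% of all genes), or XRN2 alone without replicate 2. XRN2, the nuclear enzyme that also acts in transcription termination, was at 167, 119 and 168 CPM in CLIP siUPF1 libraries, against 236, 235 and 244 CPM in CLIP siNT libraries. It fell by 0.65 (SE 0.09, adjusted p = 1.6e-07), by 0.51 without replicate 2, and in 6 of the 7 transgenic lines by 0.28 to 0.39. Leaving out 1 library ended the call in 1 of 6 fits for DE636AA and 2 of 6 for GA-KH, and WT was at −0.23 without siUPF1 replicate 3. In E797R its log2 change was −0.23 (adjusted p = 0.0548), though there too siUPF1 libraries (190, 184 and 189 CPM) were all below siNT libraries (220, 220 and 219 CPM). XRN1, the cytoplasmic enzyme, was at 90.4, 44.4 and 75.2 CPM in CLIP siUPF1 libraries and at 94.1, 95.4 and 90.1 CPM in CLIP siNT libraries. The groups overlapped, and its call (−0.41, SE 0.15, adjusted p = 0.0204) was lost without replicate 2 (−0.17) and without siNT replicate 2. In the other lines its log2 change was between −0.11 and 0.06, with no call.

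The exosome is a ring of subunits with a cap and with 3′ to 5′ nucleases attached, and it gave the most calls of any subcomplex in CLIP: 4 of 11 members were higher and 4 lower (72.7%, against 47.4% of all genes). Without replicate 2 these were 4 and 3, with EXOSC8 gained and EXOSC2 and DIS3 lost. EXOSC5, a ring subunit, was at 45.8, 67.6 and 53.1 CPM in CLIP siUPF1 libraries, against 21.8, 20.5 and 23.6 CPM in CLIP siNT libraries. It had the largest rise of the 48 members (1.34, SE 0.14, adjusted p = 2.05e-10, and 1.17 without replicate 2), and rose by 0.51 in K498A to 0.88 in WT among the other lines. BCKDHA, whose exons overlap those of EXOSC5 on the opposite strand, rose in all 8 lines as well, by 0.91 in DE636AA to 1.49 in CLIP. The strand setting of the counting was not given in the sources used here, so reads of the pair cannot be told apart.

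EXOSC7, another ring subunit, was at 31.2, 35.6 and 33.5 CPM in CLIP siUPF1 libraries, against 20.4, 19.9 and 19.9 CPM in CLIP siNT libraries (log2 change 0.74, SE 0.07, adjusted p = 4.5e-11, and 0.69 without replicate 2). It rose in R843C (0.49), A546H and GA-KH (0.38 in both), WT (0.37) and E797R (0.20), where the call was lost in 4 of 6 fits that left out 1 library. It was not called in DE636AA (0.11) or in K498A, where siUPF1 libraries had 23.6, 21.9 and 22.2 CPM and siNT libraries 23.9, 20.4 and 24.0 CPM. CLEC3B, which shares exon positions with EXOSC7 on the same strand, averaged 0.685 CPM in CLIP siUPF1 and 0.350 CPM in CLIP siNT libraries.

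Against these rises, EXOSC9, also of the ring, was at 69.2, 47.2 and 64.5 CPM in CLIP siUPF1 libraries and at 83.5, 90.3 and 91.5 CPM in CLIP siNT libraries, a fall of 0.55 (0.41 without replicate 2). It fell in WT (−0.25) and R843C too, but the calls were lost in 4 of 6 and 2 of 6 fits that left out 1 library, and WT was at −0.15 without siUPF1 replicate 3. CCNA2, which overlaps EXOSC9 on the other strand, fell in CLIP (−0.28, adjusted p = 0.0179) and was called in no other line. In K498A and DE636AA its siUPF1 and siNT libraries overlapped, with log2 changes of −0.05 and 0.01. EXOSC1, a cap subunit, fell in 6 lines by 0.30 to 0.44 (the WT call was lost in 3 of 6 such fits), but not by the test in R843C (−0.22) or GA-KH (−0.19). The nucleases EXOSC10 and DIS3 fell in CLIP and were called in no other line (−0.28 and −0.37). EXOSC10 was at −0.27 without replicate 2, while DIS3 was at −0.22 and not called. Both genes that overlap DIS3 on the other strand fell in CLIP as well, BORA by 0.41 (adjusted p = 0.00518) and PIBF1 by 0.52 (adjusted p = 0.00863), and the part of their reads in the DIS3 values was not tested. EXOSC2, a cap subunit, was the one member called in opposite directions: higher in CLIP by 0.13 and lower by 0.16 to 0.24 in 6 transgenic lines. The CLIP call had an adjusted p of 0.0493 and was lost in 4 of 6 fits that left out 1 library, as were those in WT and A546H. The K498A call was lost in 3 of 6 such fits.

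**Figure D5:**
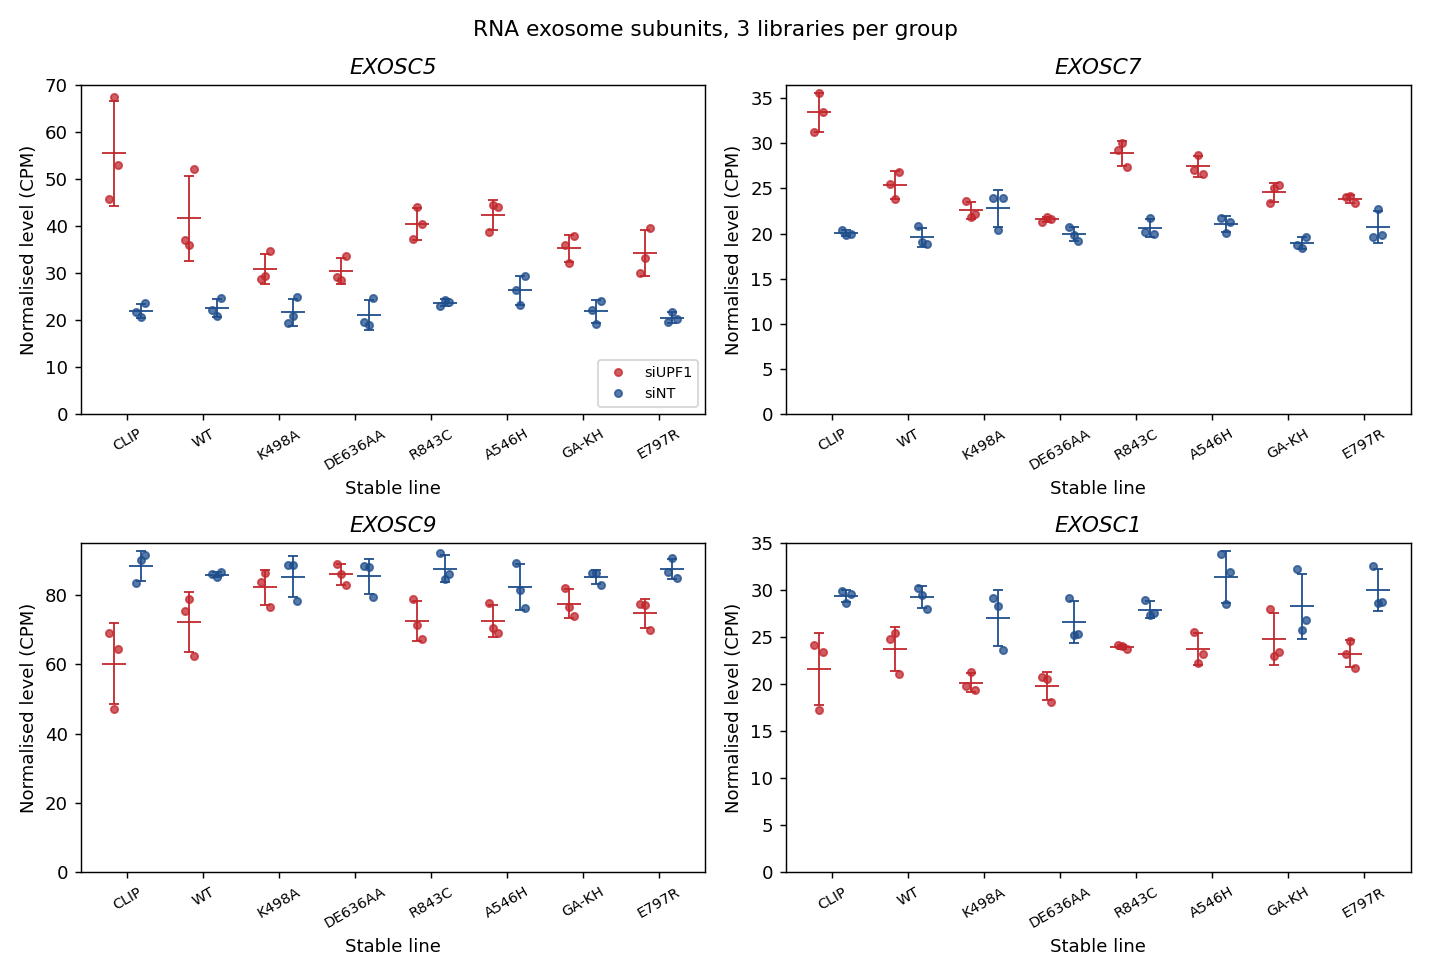
Normalised level in CPM (y axis) of 4 exosome subunits in each stable line (x axis); points are libraries, bars the mean ± SD of 3, siUPF1 in red to the left of siNT in blue. EXOSC5 is higher with siUPF1 in all 8 lines, EXOSC7 is highest in CLIP siUPF1 at 31.2 to 35.6 CPM, and EXOSC9 overlaps between siRNAs in K498A and DE636AA.

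The SKI complex feeds mRNAs into the cytoplasmic exosome, and PELO with HBS1L releases stalled ribosomes. In CLIP 1 of these 5 genes was higher (20%, against 47.4% of all genes): SKIV2L, the SKI helicase, at 49.7, 86.2 and 51.3 CPM in siUPF1 libraries and 48.5, 47.4 and 43.4 CPM in siNT libraries. That rise (0.42, SE 0.12, adjusted p = 0.00441) rested on replicate 2, and without it the log2 change was 0.12 and not called. In WT cells, however, SKIV2L was at 57.0, 61.4 and 72.5 CPM with siUPF1, against 43.1, 49.1 and 45.3 CPM with siNT (0.47, adjusted p = 0.00337), and it rose in K498A (0.41), DE636AA (0.50) and E797R (0.41). NELFE, overlapping SKIV2L on the other strand, was called in CLIP only (0.32). PELO rose in K498A (0.24) and DE636AA (0.38). WDR61, a SKI subunit, fell in K498A, DE636AA and A546H by 0.19 to 0.24. These WDR61 calls were lost in 1, 2 and 5 of 6 fits that left out 1 library. TTC37 and HBS1L were called in no line in the main fit. HBS1L was called in K498A with the replicate block and with only the libraries compared.

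Whether a transgene altered the response was tested as a difference of log2 changes. For WT minus CLIP, 3 members passed (6.25% of members, against 11.9% of all genes). The response of DCPS was higher in WT by 0.44 (SE 0.13, adjusted p = 0.0212): WT cells had 11.3, 10.3 and 12.1 CPM with siUPF1 and 8.10, 8.20 and 8.83 CPM with siNT, while CLIP cells had 9.06, 9.25 and 9.29 CPM with siUPF1 and 8.15, 9.38 and 10.4 CPM with siNT. The responses of EXOSC7 (−0.36, SE 0.10, adjusted p = 0.0118) and EXOSC2 (−0.30, SE 0.08, adjusted p = 0.00769) were lower in WT. Without CLIP siUPF1 replicate 2 these 3 stayed at 0.43, −0.33 and −0.27, and EXOSC8 (−0.36) was added. All 3 lost their call with only the libraries compared, which left 0 members, and without the low-count filter, which left CNOT7 alone. The members that moved most in CLIP gave 0.45 for CNOT7 (adjusted p = 0.235) and −0.45 for EXOSC5 (adjusted p = 0.118), and EXOSC5 passed with the replicate block. The number passing was 8 without CLIP siUPF1 replicate 1, 8 without CLIP siUPF1 replicate 3 and 6 without WT siUPF1 replicate 3. The shares of all genes in those fits are not given here.

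Each mutant response was set against that of WT, and these comparisons share the WT libraries. For K498A minus WT 2 members passed (4.17%, against 3.26% of all genes): DDX6 at −0.59 (SE 0.13, adjusted p = 0.00434) and EXOSC7 at −0.39 (SE 0.10, adjusted p = 0.0197). For DE636AA minus WT DDX6 alone passed (2.08%, against 4.5% of all genes), at −0.70 (SE 0.13, adjusted p = 0.000383). DDX6 passed in all 12 fits that left out 1 library for each mutant, whereas EXOSC7 passed in 5 of 12 and lost its call with only the libraries compared and without the low-count filter. LSM4 was at −0.64 in DE636AA (adjusted p = 0.073) and −0.42 in K498A (adjusted p = 0.371), and DCP1A was at 0.32 (adjusted p = 0.0807) and 0.33 (adjusted p = 0.0858). Other fits did call them: DE636AA minus WT gave DDX6, DCP1A, LSM4 and PELO with DESeq2 and with the replicate block. K498A minus WT gained DCP1A with DESeq2, and DCP1A and LSM4 with the block.

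No member passed for R843C, A546H, GA-KH or E797R minus WT by edgeR, against 1.94%, 0.298%, 0% and 0% of all genes, and DESeq2 gave 0 as well. At an unadjusted p under 0.05 there were 3 members in R843C and 1 in each of the other 3 lines. A p above the threshold does not show that these responses equalled that of WT. With siNT, where endogenous UPF1 was present, no member differed between any UPF1 line and CLIP by edgeR. Of all genes, 1.34% passed in DE636AA and 0.125% in A546H, while WT gave 0.0314%, K498A 0.0366%, R843C 0.0889%, GA-KH 0.0627% and E797R 0.0261%. Members at an unadjusted p under 0.05 numbered 10 in DE636AA, 7 in K498A, 0 in GA-KH and 1 in each of the rest. For these unadjusted counts, here and against WT, the share of all genes is not given, so they are no result about the members. With siNT, DESeq2 called 1 member, DIS3L in DE636AA.

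Some features that the choice of genes did not use varied among the members. In siNT libraries, levels per kilobase of the longest coding transcript in GENCODE 29 put XRN2 at a median of 64.2 CPM per kb and XRN1 at 8.93. CNOT1, at 70.1, was the highest of CCR4-NOT, and LSM4 at 85.7 and LSM6 at 5.02 were the extremes of the LSM ring. Within the ring those lengths ran from 575 bases for LSM7 to 3815 for LSM3, so the order can depend on the transcript taken. Transcripts annotated as NMD substrates in GENCODE 29 belonged to 28 of the 48 members (58.3%), against 41.8% of 14107 tested protein-coding genes. The sets were not matched for the number of annotated transcripts per gene, so the gap does not show an enrichment. Members with such a transcript were 5 of the 9 higher in CLIP, 7 of the 12 lower and 16 of the 27 not called. Gene-level counts do not separate such transcripts from the others. For 34 members an overlapping gene on either strand or a pseudogene of the same name exists in that annotation, so their counts are uncertain to that extent. DDX6 and CNOT7 each have 2 such pseudogenes, and VPS37A, which overlaps CNOT7 on the other strand, was called in no line.

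Other genes of mRNA decay, a list of cofactors, adaptors and nuclear decay factors of which 60 were tested, had 16 higher and 18 lower in CLIP (56.7%, against 47.4% of all genes), and 15 and 13 without replicate 2. The highest were GIGYF1, a partner of the cap-binding repressor 4EHP (1.63, SE 0.22), the exosome ring subunit EXOSC6 (1.48, SE 0.16) and CDKN2AIP, which binds XRN2 (1.36, SE 0.10). Lowest were the nuclear exosome cofactor C1D (−1.12, SE 0.23), RC3H2, an RNA-binding protein of the Roquin family (−0.94, SE 0.11), and the miRNA-silencing scaffold TNRC6C (−0.74, SE 0.11). Without replicate 2 these 6 were at 1.07, 1.19, 1.52, −0.80, −0.76 and −0.91. GIGYF1 and EXOSC6 rose and RC3H2 and TNRC6C fell in all 8 lines, whereas CDKN2AIP was not called in WT (−0.04), A546H (0.19), GA-KH (−0.11) or E797R (0.06).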

How the data were processed

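The authors deposited 1 table of expected counts per gene, not normalised, with 1 column per library. Reads were processed with cutadapt, STAR and RSEM on hg19, per the submitters' processing notes. The sources used here give no versions, annotation release or strand setting. Rounded expected counts went into edgeR 4.0.16 (R 4.3.3), where filterByExpr kept 19129 genes, and a quasi-likelihood model with TMM scaling and 1 term for each of the 16 groups was fitted to all 48 libraries. The 22 comparisons were 8 siUPF1 responses, 7 differences of responses and 7 siNT comparisons, each adjusted over all tested genes by Benjamini-Hochberg and called under 0.05. SE comes from the model. Each p-value sets a change against the spread between replicate libraries, estimated for each gene over all 16 groups together.

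Values per library were given for the 2 called members of each subcomplex with the largest change in CLIP, and in other comparisons the 3 highest and 3 lowest called members were named. Any further member was chosen after its values were seen. Members and lists were chosen with earlier results of these data known. On simulated counts for the CLIP response over 19129 genes, 96 of 100 genes changed by 1 on the log2 scale were called, and 14 of 100 changed by 0.3. Replicate numbers deviated together in every pair of K498A (correlations 0.182, 0.157 and 0.283) and of GA-KH (0.251, 0.275 and 0.122). The alternatives were DESeq2 1.42.0, its size factors in edgeR, no filter on low counts, only the libraries compared, a replicate block and leaving out each library. GENCODE 29 gave gene overlaps and transcripts, and RefSeq on GRCh38.p14 gave promoters, matched by symbol, while the counts are on hg19. LSM8 and NBDY were listed among the other decay genes but not matched.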

Additional observations from a re-analysis of the deposited data

Results flagged for a closer look

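In 6 cases the siUPF1 response of a decay gene differed between lines by the test of the difference itself. The DDX6 response was lower than in WT by −0.702 in DE636AA and by −0.587 in K498A on the log2 scale, and both differences passed in each of the 12 fits that left out 1 library. In both mutant lines DDX6 was between 102.4 and 139 CPM with siUPF1, against 190 to 225 CPM with siNT. The EXOSC7 response was lower in K498A than in WT by −0.387, which passed in 5 of 12 such fits. It was also lower in WT than in CLIP, by −0.363, and there it passed in all 12. The EXOSC2 response was lower in WT than in CLIP by −0.299, which passed in all 12. With only the libraries compared and without the low-count filter, the EXOSC7 and EXOSC2 differences and that of DCPS lost their calls, while both DDX6 differences kept theirs. The DCPS response was higher in WT than in CLIP by 0.441, which was lost without CLIP siNT replicate 3, WT siNT replicate 1 or WT siNT replicate 2. Their causes were not tested.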

How the results depend on the processing

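No direction of a called member reversed under any alternative. Of 172 called values of single genes, DESeq2 kept all 172, its size factors in edgeR 171, the replicate block 172, no filter on low counts 133 and only the libraries compared 119. With only the libraries compared, the members called were 7 in CLIP (14.6%, against 22% of all genes), 26 in R843C, 0 for WT minus CLIP and 1 for K498A minus WT. Without a filter on low counts they were 1 for WT minus CLIP, 1 for K498A minus WT, 2 for DE636AA minus WT and 1 for DE636AA siNT over CLIP siNT. DESeq2 gave 4 for DE636AA minus WT and 1 for DE636AA siNT. With the replicate block they were 20 in E797R, 4 for K498A minus WT, 4 for DE636AA minus WT and 2 for DE636AA siNT, and no other count moved by over 1.5 times. Apart from the 22% for CLIP, the share of all genes in the same fit is not given beside these counts. They are therefore no result about the members. Same-number correlations ran from −0.00731 to 0.283 over 24 pairs, and 15 were over 0.1. All pairs of a line were so in K498A and GA-KH only. Yet 41 of 48 libraries correlated best with their own number, a hint from the data that the numbers carry shared variation in other lines too.

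Leaving out 1 library gave 17 to 25 members in CLIP, 10 to 15 in WT, 16 to 20 in K498A, 16 to 21 in DE636AA, 11 to 13 in R843C, 11 to 14 in A546H, 10 to 11 in GA-KH and 9 to 13 in E797R. It gave 2 to 8 for WT minus CLIP, 1 to 3 for K498A minus WT, 1 to 3 for DE636AA minus WT, 0 to 2 for DE636AA siNT (2 without DE636AA siNT replicate 1), and 0 for each of the other comparisons. The share of all genes called in each such fit is not given here, so these ranges are no result about the members. The causes were not tested. In the simulation, with 3 libraries a group, 14 of 100 changes of 0.3 were called. Only 100 genes were changed by each amount there, among 19129, whereas 47.4% of all genes were called in the CLIP data. The simulation therefore does not show how many small changes were missed in these data. What depth and replicate spread each add to a missed call was not tested.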
